A study of Mus with 8 samples.

Results

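Monocytes of Jak2 V617F mice were compared with control monocytes in viscous hydrogel, in 4 of the 8 libraries of the series. The libraries were chosen by their titles: 2 of Jak2 V617F cells and 2 of control cells, here called A and B within each genotype in the order of their titles. Each title ends in a number of its own, which 1 elastic library of the same genotype shares and which the letter stands for. Control mice carried Vav-iCre, a Cre recombinase driven by a promoter active in blood cells, and the Jak2 V617F mice carried Vav-iCre and a knock-in of the mutation at the endogenous Jak2 gene; all were of strain C57BL/6. The labels give neither the number of mutant alleles nor the age of the mice, and do not say whether a title number marks an animal, a pool or a day. Bone marrow monocytes of both genotypes were negatively selected and kept in stiff gel to day 3, in medium with GM-CSF and PGE2 at 100 ng/mL each and IL4 at 200 ng/mL.

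JAK2 is a tyrosine kinase bound to cytokine receptors, among them the receptor for GM-CSF, and it passes their signal to STAT transcription factors. The V617F change lies in its pseudokinase domain and leaves the kinase active without cytokine. It drives myeloproliferative neoplasms, in which monocytes take part in the inflamed and often fibrotic marrow. The comparison addresses which transcripts differ between mutant and control monocytes in the viscous form of a stiff matrix.

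The deposited table names genes by Ensembl ID and pairs none of them with a symbol. For this reason Jak2 itself, the identity of the cells as monocytes and the content of other cell types were not checked here, and 4 IDs are named below by their p-values. A transcript count would also not show a single-base change. Without such markers, fewer cells of a type and less RNA per cell cannot be told apart.

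The 4 viscous libraries held 32605711 to 38408851 counts, and 14785 of the 17640 IDs were kept for tests. The 2 control libraries stood about as far apart as control B stood from the mutant libraries. The root mean square difference between the controls over the 14785 IDs was 0.964 log2 CPM (counts per 1e+06 of the scaled library), and 2539 IDs (17.2%) differed 2-fold or more between them. The 2 Jak2 V617F libraries differed by 0.683 log2 CPM, with 1269 IDs 2-fold apart. Control A lay 0.663 log2 CPM from Jak2 V617F library B and 0.786 from library A, below and above the distance between the mutant libraries. Control B lay 0.967 and 0.98 log2 CPM from libraries A and B. Of the 2539 IDs on which the controls were 2-fold apart, the Jak2 V617F mean was nearer to control A for 1847 (72.7%) and nearer to control B for 692 (27.3%). Each finding is therefore given against both control libraries.

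The genes with the smallest p-values among those higher in Jak2 V617F cells are described first. They were chosen for a small p and for groups without overlap, which favours genes on which the controls are alike. ENSMUSG00000022885 stood at 64.0 and 63.0 CPM in Jak2 V617F libraries A and B, against 27.5 CPM in control A and 22.9 CPM in control B. Both mutant libraries were high and the groups did not overlap. The mutant mean was 2.31 times the level of control A and 2.77 times that of control B. The fitted log2 fold change was 1.33 (SE 0.14, 95% interval 1.01 to 1.66), with an edgeR adjusted p of 0.31.

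ENSMUSG00000062783 stood at 61.2 and 52.3 CPM in Jak2 V617F libraries A and B, against 14.3 CPM in control A and 14.7 CPM in control B. The controls were nearly level with each other, and the mutant mean was 3.97 and 3.85 times their levels. The fitted log2 fold change was 1.97 (SE 0.21, 95% interval 1.48 to 2.46), with an edgeR adjusted p of 0.31. For this ID the lower mutant library was 3.54 times the higher control, and for ENSMUSG00000022885 2.29 times, both on the log2 CPM scale with a prior count of 2.

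The genes with the smallest p-values on the lower side were present at low counts in both controls and at 0 in both mutant libraries. ENSMUSG00000095186 had 25 counts in control A (0.778 CPM) and 25 in control B (0.680 CPM), and 0 counts in Jak2 V617F libraries A and B. ENSMUSG00000091471 had 38 counts in control A (1.18 CPM) and 55 in control B (1.5 CPM), and again 0 in both mutant libraries. Against a floor of 3 counts over the 2 mutant libraries together (0.04 CPM), ENSMUSG00000095186 was at least 18.2-fold lower in Jak2 V617F cells, at least 19.5-fold against control A and 17.0-fold against control B. ENSMUSG00000091471 was at least 33.8-fold lower by the same floor, at least 29.6-fold and 37.5-fold against the controls in the same order. The floors cover counting error only. Their edgeR adjusted p-values were 0.437 and 0.473. Salmon, named in the submitters' processing notes, estimates how reads divide between similar transcripts, so values of genes with a near-identical copy are uncertain, and such genes could not be recognised without symbols.

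**Figure D1:**
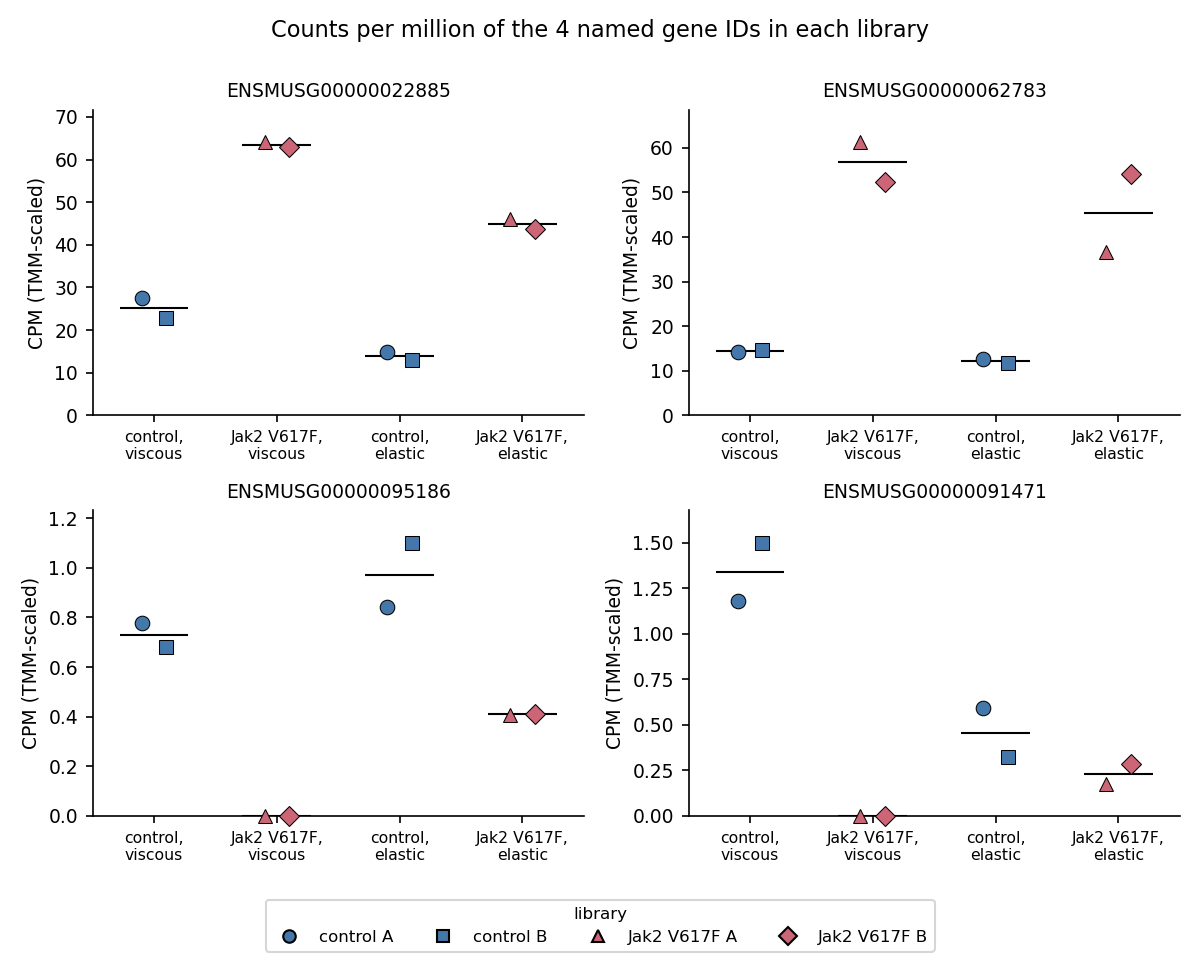
CPM (y axis, linear from 0) of the 4 named gene IDs in each of the 8 libraries, by genotype and matrix (x axis). Symbols give the library (A or B of each genotype), blue is control, red is Jak2 V617F and the line is the mean of 2 libraries; in viscous matrix both mutant libraries lie above both controls for ENSMUSG00000022885 and ENSMUSG00000062783 and at 0 for the other IDs.

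These 4 IDs were picked by p in the libraries that give their values, so their differences may be too large, and their separation from both controls follows from the choice. None of them passed the edgeR test across all genes. Over all 14785 IDs, edgeR called 0 (0%) at an adjusted p under 0.05, and the smallest adjusted p was 0.31. At an unadjusted p under 0.05 it found 1081 IDs (7.31%), where 739 would be expected by chance. Of these, 533 (3.61%) lay on the higher side in Jak2 V617F cells and 548 (3.71%) on the lower; with DESeq2 size factors the split was 555 to 542, so the more frequent direction changed with the scaling. limma-voom also called 0, with 1125 IDs at that level. DESeq2 called 61 IDs (0.413%), 35 higher and 26 lower, among them all 4 named IDs. The median SE of a log2 fold change was 0.261, which gives a 95% interval of 0.625 log2 units to either side. For a gene of median precision, a smaller fitted difference would thus not reach an unadjusted p under 0.05. A true difference of that size could still be missed. The p-values rest on the spread among these libraries alone, part of which may be technical.

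Support from both controls was then counted for every gene. An ID was taken to clear a control when both Jak2 V617F libraries lay 1.5-fold or more above it, or both below it. Against control A alone, 825 IDs were higher and 791 lower. Against control B alone, 1417 were higher and 1706 lower. Both controls were cleared by 258 IDs upward (1.75%) and by 360 downward (2.43%). The 258 were 31.3% of the IDs that cleared control A upward and 18.2% of those that cleared control B, and the 360 were 45.5% and 21.1% of the lower ones. Most genes that cleared 1 control library thus did not clear the other by 1.5-fold. With no minimum fold against the other control, the mutant libraries lay beyond it on the same side for 434 (52.6%) of the higher and 546 (69.0%) of the lower IDs that cleared control A, and for 753 (53.1%) and 919 (53.9%) of those that cleared control B. Over all IDs, both mutant libraries lay above control B for 38.8% and below it for 39.2%. For control A these shares were 36.2% and 36.8%. The comparisons share the mutant libraries, so some agreement in direction is built in. Even so, 121 IDs cleared control A upward and control B downward, and 70 did the opposite.

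**Figure D2:**
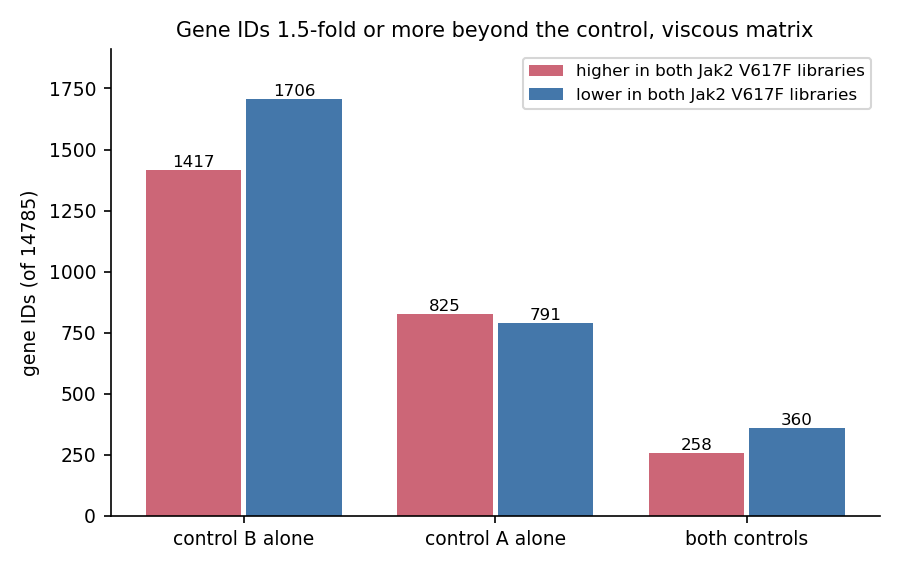
Number of gene IDs (y axis, of 14785 kept) for which both Jak2 V617F libraries lay 1.5-fold or more above (red) or below (blue) control B alone, control A alone, or both controls (x axis). The bars fall from 1417 and 1706 against control B to 258 and 360 against both.

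**Figure D3:**
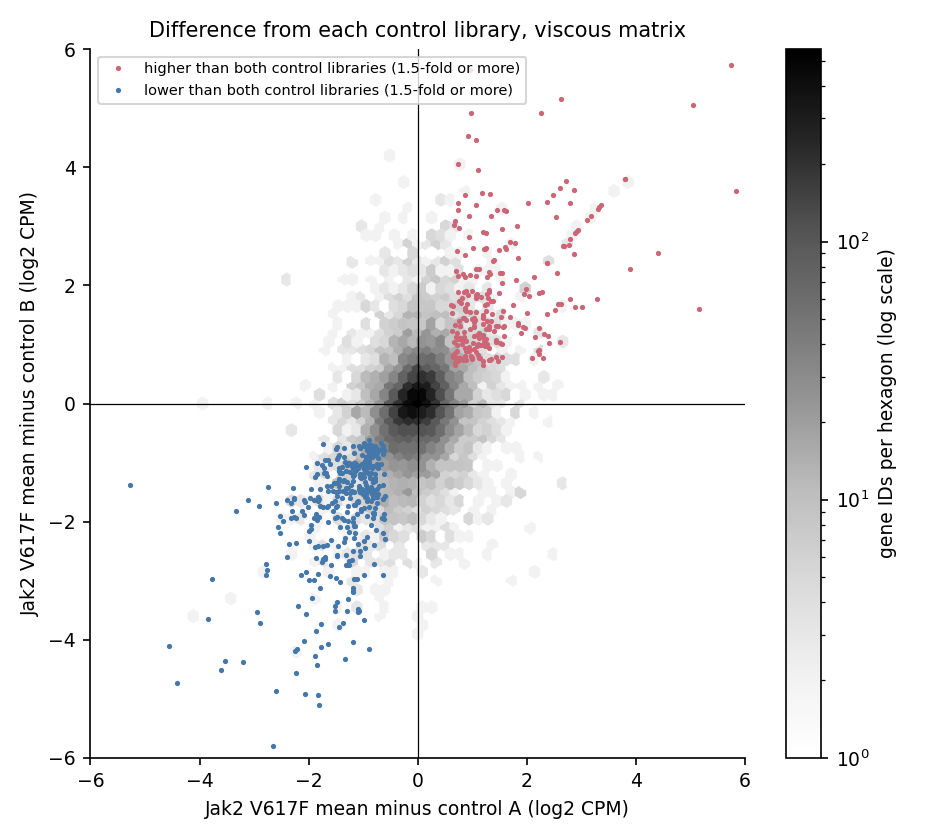
Mean of the 2 Jak2 V617F libraries minus control A (x axis) and minus control B (y axis), in log2 CPM, per gene ID; grey shows IDs per hexagon on a log scale, and red and blue points are the 258 higher and 360 lower IDs that clear both controls. Both axes share the mutant mean, 10 IDs lie beyond 6 log2 units, and the cloud is taller than wide because control B lay farther from the mutant libraries.

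Without a minimum fold, both mutant libraries lay above both controls for 2757 IDs (18.6%) and below both for 2864 (19.4%). With 2 libraries a group such a separation is frequent whatever the labels, so these counts alone show no effect of genotype. The Jak2 V617F mean lay between the control libraries for 6049 IDs (40.9%). Of the 258 higher IDs, 90 cleared both controls 2-fold and 28 cleared them 4-fold. Of the 360 lower IDs, 141 cleared both 2-fold and 15 cleared them 4-fold. An unadjusted edgeR p under 0.05 was found for 166 of the 258 (64.3%) and 220 of the 360 (61.1%), a share that the choice of non-overlapping IDs raises by construction. DESeq2 called 31 of the 258 and 22 of the 360.

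The genes that cleared both controls were mostly of low abundance, 135 of the 258 higher and 242 of the 360 lower ones with a mean under 50 counts. Among the 7974 IDs with a mean of 500 or more counts over the viscous libraries, 45 (0.564%) were higher than both controls and 22 (0.276%) lower. Among the 3868 IDs with a mean of 50 to 500 counts, 78 (2.02%) were higher and 96 (2.48%) lower. Among the 2943 IDs under 50 counts, the shares were 4.59% higher and 8.22% lower. The abundant genes that differed from both controls were thus more often higher, and the scarce ones more often lower; this difference was not tested. Scarce genes also varied more within a genotype: the controls were 2-fold apart for 43.6% of the IDs under 50 counts and for 6.53% of those with 500 or more. The median SE fell from 0.741 to 0.175 log2 units between these classes. The share at an unadjusted edgeR p under 0.05 hardly moved, at 7.71%, 7.37% and 7.14% from the scarcest to the most abundant class.

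Some transcripts were detected in 1 genotype only. With 0 counts in both controls and 3 or more in both mutant libraries there were 70 of 17640 IDs, and with 0 in both mutant libraries and 3 or more in both controls there were 46. These were mostly near the limit of detection, with a median sum of 11 and 12 counts over the 2 libraries that held them. With at least 10 counts in both libraries, 10 and 9 IDs remained of each kind. In elastic matrix, 57 of the 70 had a count in at least 1 control library, and 35 of the 46 had one in at least 1 Jak2 V617F library. By the threshold of 3 or more counts in both of those libraries, 11 of the 70 and 6 of the 46 were detected there. For most of these IDs the 0 in viscous matrix was thus not a 0 in the same genotype in the other gel, but few reached that threshold.

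Calls made with 1 control number were then read against the other control. When both libraries of control A were left out, so that B alone stood for control cells, edgeR called 771 IDs (4.98% of 15473), with 377 above and 394 below that control. For 447 of the 771 (58.0%) the mutant libraries also lay beyond control A on the same side, and 118 (15.3%) cleared both controls 1.5-fold. When both libraries of control B were left out, edgeR called 0 of 15033 IDs (0%), with 1825 at an unadjusted p under 0.05, and DESeq2 called 170. Of those 170, 100 (58.8%) lay beyond control B on the same side and 61 (35.9%) cleared both controls. Over all IDs, both mutant libraries lay above control A for 36.2% and below it for 36.8%, and for control B 38.8% and 39.2%. The fits without a control number hold 1 control library in each matrix, so their spread comes from the Jak2 V617F libraries only and says nothing of the spread between controls. Of the 61 IDs that DESeq2 called with both controls, 53 (86.9%) cleared both controls 1.5-fold, 31 higher and 22 lower. A call with 2 libraries a group nearly requires groups without overlap, as 1079 of the 1081 IDs at an unadjusted edgeR p under 0.05 had, so this adds no support from the controls.

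**Figure D4:**
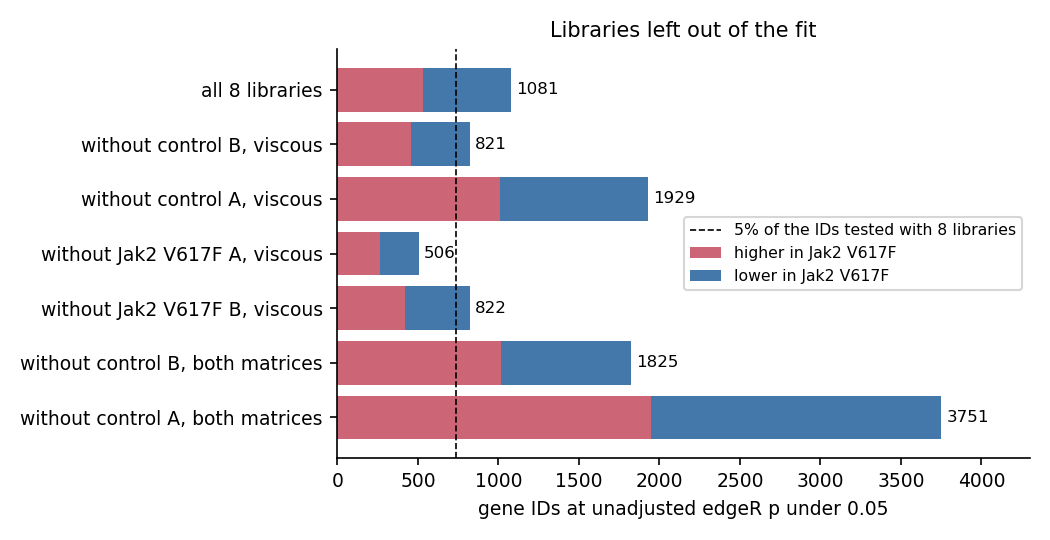
Number of gene IDs at an unadjusted edgeR p under 0.05 (x axis) in the viscous genotype comparison with all 8 libraries in the fit and with libraries left out (y axis); red is higher and blue lower in Jak2 V617F cells, and the dashed line marks 739 IDs, the number expected by chance with all libraries. The count is 1081 with all libraries, 506 without Jak2 V617F library A and 3751 without both libraries of control A.

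The named genes were set beside their values in elastic matrix, where cells carried the same title numbers. ENSMUSG00000022885 stood at 46.1 and 43.8 CPM in Jak2 V617F libraries A and B and at 14.8 and 13 CPM in controls A and B, again without overlap. ENSMUSG00000062783 stood at 36.6 and 54.1 CPM in the mutant and at 12.6 and 11.7 CPM in the control libraries in the same order. The genotype effect in elastic minus that in viscous matrix was 0.36 log2 units (95% interval −0.10 to 0.82) for the first and −0.06 (95% interval −0.74 to 0.61) for the second, with an edgeR adjusted p of 1 for both. Both intervals include 0, and neither excludes a difference of 0.6 log2 units. They come from the fit without the title number as a block and take no account of a correlation between libraries that share it.

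The lower IDs were not at 0 in the mutant cells in elastic matrix. ENSMUSG00000095186 had 14 and 13 counts in Jak2 V617F libraries A and B (0.408 and 0.411 CPM) and 27 and 34 counts in controls A and B (0.841 and 1.10 CPM). ENSMUSG00000091471 had 6 and 9 counts (0.175 and 0.284 CPM) against 19 and 10 (0.592 and 0.323 CPM), in the same order. The mutant values were below both controls in elastic matrix too, by a smaller factor than in viscous matrix. The fitted log2 fold change there was −1.24 (95% interval −2.47 to −0.01) for ENSMUSG00000095186. For ENSMUSG00000091471 it was −0.99 (95% interval −2.52 to 0.54), an interval that includes 0. The edgeR adjusted p was 0.937 for both, so a lower level in elastic matrix was not established for either. The unadjusted edgeR p-values of the difference between the gels were 0.00115 and 0.00121, and both adjusted p-values were 1. Both IDs were picked by their viscous values, which this difference uses again. The smaller factor in elastic matrix and the small unadjusted p-values therefore follow in part from the choice.

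About 1 in 4 or 5 of the genes that cleared both controls in viscous matrix did so in elastic matrix. In elastic matrix 251 IDs were higher than both controls by 1.5-fold (1.70%) and 269 lower (1.82%). The matrices shared 62 higher IDs, 24.0% of the viscous and 24.7% of the elastic ones, and 66 lower IDs, 18.3% and 24.5%. Without a minimum fold, 140 of the 258 higher IDs (54.3%) lay above both elastic controls, against 17.2% of all IDs, and 146 of the 360 lower IDs (40.6%) lay below them, against 18.9%. Groups overlapped in elastic matrix for 105 and 188 of them. The same cells may have been divided between the gels, as the shared title numbers allow, so this is no independent repeat. With control A alone, 196 of the 825 higher and 181 of the 791 lower viscous IDs were shared between the gels. With control B alone, 790 of 1417 and 981 of 1706 were shared, a larger portion. Of all 14785 IDs, however, 680 cleared control A upward and 510 downward in elastic matrix, against 1635 and 2005 for control B. Control B was thus cleared by more IDs in both gels, so the larger portion does not by itself show closer sharing.

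The median log2 fold change of the 258 IDs was 1.57 in viscous and 0.67 in elastic matrix, and that of the 360 was −1.63 and −0.56. Since these IDs were picked in viscous matrix, a smaller difference in the other gel follows in part from the choice. The difference between the gels had an edgeR adjusted p of 1 for every one of the 618 IDs. Over all IDs, edgeR called 0 for this difference, with 254 (1.72%) at an unadjusted p under 0.05, and limma-voom called 0 with 259. DESeq2 called 2. The numbers from edgeR and limma-voom are below the 739 expected by chance, so their 0 calls do not show that the gels are alike. Of the 258 and the 360 IDs, 41 and 53 had an unadjusted edgeR p under 0.05 for the difference. Their choice by viscous values raises these counts. With the title number as a replicate block, which this contrast allows, edgeR (fixed block) called 0 with 531 at that level, and limma-voom (random block) 0 with 587; the smallest adjusted p among the 618 IDs was 1 and 0.999. Of the 618 IDs, 115 (edgeR, fixed block) and 167 (limma-voom, random block) had an unadjusted p under 0.05, again raised by the choice. In opposite directions in the 2 gels, 5 of the higher and 5 of the lower IDs cleared both controls.

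One list with a function could be used without symbols, the IDs of genes whose expression is high in late cell cycle and division, from the training pairs of scran. Of its 55 IDs 48 were kept. At an unadjusted edgeR p under 0.05, there was 1 on the higher and 1 on the lower side (3.61% and 3.71% of all IDs), and 0 cleared both controls 1.5-fold. Their summed level was 1150 and 1160 CPM in Jak2 V617F libraries A and B and 1140 and 1180 CPM in controls A and B. The median log2 fold change was 0.03, against −0.01 over all IDs. As a sum, the transcripts of this list thus stood at almost the same level in all 4 viscous libraries, the control that stood apart included. The sum does not show single IDs. Without a minimum fold, 8 of the 48 lay above both controls and 8 below, where 18.6% and 19.4% of all IDs did.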

How the data were processed

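The submitters' processing notes name Salmon, DESeq2 and the build GRCm38 of the mouse genome, with no versions or roles; the summing to genes, rounding, filtering and use of strand are not given in the sources used. The authors deposited whole, unnormalized counts per Ensembl ID in a table of 17640 IDs, whose values were the same as those of the 8 per-library files. No ID matched a symbol: the reference table of 49997 genes held 0 Ensembl IDs, so 30 gene lists, a promoter motif search and the genes next to Jak2 were not analysed.

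The genotype test used edgeR 4.0.16 (R 4.3.3): filterByExpr by group, TMM scaling, and a quasi-likelihood model with 4 group means over 8 libraries (2 a group), two-sided, with Benjamini-Hochberg adjustment over all 14785 IDs kept, called under 0.05. SEs were derived from the test statistic. Clearing of controls used log2 CPM with a prior count of 2. Both pairs of viscous replicates differed beyond counting noise (chi-square of 94.5 and 185 for each degree of freedom). Alternatives used DESeq2 1.42.0, limma 3.58.1, other scalings, filters and libraries left out; scran 1.30.0 gave the cell cycle list (IDs first in every G2M pair and second in every G1 pair). This list, the classes by mean count and the counts of IDs detected in 1 genotype were taken up after seeing the data. The tests were checked on simulated data, on which DESeq2 made false calls well above its nominal rate and edgeR missed most of the smaller changes. Those data held independent libraries with the same spread per gene in each group. The check thus does not cover the wider distance between the controls or a correlation of libraries that share a title number. Figures used matplotlib 3.10.9 in Python 3.11.15.

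The members and lists were chosen with earlier results of these data known. Named IDs are the 2 higher and 2 lower IDs with the smallest edgeR p whose groups do not overlap, the rule for a table without symbols. Libraries that share a title number deviated from their group means with a correlation of 0.532 (control) and −0.0894 (Jak2 V617F), and what the number marks is not stated, so it was not used as a pairing in the main fits. For the genotype effect it could enter only as a random block, since each number belongs to 1 genotype; for the difference between the gels both kinds of block were fitted, added after seeing the data.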

Additional observations from a re-analysis of the deposited data

How the results depend on the processing

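edgeR's 0 calls for genotype in viscous matrix became 771 without both libraries of control A. DESeq2 called 61, and 1461 or 170 without control number A or B (both added after seeing the data). The other settings, among them both scalings, both filters, limma-voom with and without quality weights, the 4 viscous libraries alone, an adjusted p under 0.1 and each viscous library left out, gave 0. IDs at an unadjusted p under 0.05 numbered 506 (without Jak2 V617F A) to 1929 (without control A) with 1 viscous library left out, 3751 (edgeR) and 2889 (DESeq2) without both libraries of control A, and 1825 without those of B, against 1081; fits with a lone control assume that it varies like the other groups. With the title number as a replicate block (random, limma-voom, correlation 0.381) 0 IDs were called and 1086 had an unadjusted p under 0.05, against 0 and 1125 without it; a fixed block could not be fitted for genotype. The 258 higher IDs that cleared both controls became 443 without a filter (the lower ones 536 against 360), and 141 with at least 50 counts in 2 libraries (lower 153). They became 90 at 2-fold (lower 141) and 2757 with no fold (lower 2864); with 1 library left out they were 510 to 1417 (lower 791 to 1706), since fewer libraries are easier to clear. DESeq2 called 2 IDs for the difference between the gels, and limma-voom 0, as did both replicate blocks. The 4 named IDs kept their sign in all 66 alternative values, of which 16 passed the threshold (DESeq2, and the fits without a control number except edgeR without B), which the choice of non-overlapping groups largely fixes. Counts for the 2 lower IDs were too few for the stricter filter. Medians of the gene lists could not be computed without symbols.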
